A study of Mus musculus with 45 samples.

Results

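The genes described here are 9 immediate early genes of receptor signalling: Nr4a1, Nr4a3, Egr1, Egr2, Egr3, Fos, Fosb, Jun and Junb. They were picked by symbol, 9 of the 30317 gene symbols in the deposited expression table, and followed across all 15 groups of mouse follicular B cells. Of the 9, 8 reached the level needed for testing, at least 1 TPM in at least 3 libraries. TPM is a length-corrected share of all transcripts in a library, so levels of different genes can be compared on it. Fosb, which encodes an AP-1 subunit, was listed at 0 in all 45 libraries and was not tested.

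Immediate early genes are transcribed as soon as a receptor signals, before any new protein is made, and most of their transcripts decay quickly once the signal ends. In B cells they follow the antigen receptor through calcium, MAP kinase and NF-kB signals, and Toll-like receptors through MAP kinase and NF-kB. Nr4a1 and Nr4a3 encode orphan nuclear receptors, and Nr4a1, also called Nur77, is widely used as a reporter of antigen receptor signal strength. Egr1, Egr2 and Egr3 encode zinc finger factors that bind GC-rich sites, and Egr2 and Egr3 are known for restraining antigen receptor responses in lymphocytes. Fos, Fosb, Jun and Junb encode subunits of AP-1, the dimeric factor that binds near many activation genes.

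Every library came from splenic follicular B cells of B6.Blimp1GFP/+ mice, which carry a GFP reporter in 1 of their Blimp1 alleles, so no group is free of that allele. The cells were cultured on OP9-DL1 or on OP9. OP9 is a mouse bone marrow stromal line, and OP9-DL1 is the same line made to display the Notch ligand Delta-like 1. Anti-IgM F(ab')2, which crosslinks the antigen receptor, and LPS, the Salmonella lipopolysaccharide that signals through Toll-like receptor 4, were each used at 10 µg/mL on both stromas for 20, 44 and 68 h. Unstimulated cultures had medium alone for 68 h on both stromas. A further group was sorted as Blimp1+ from LPS cultures on OP9-DL1, and its labels give no time. Each group had 3 libraries of sorted live cells. No label says that the replicates came from separate animals or cultures, so p-values measure the spread between libraries, which may be technical.

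Libraries held 3071640 to 29087300 estimated reads, with a median of 6739260. A set of 10 libraries stood apart from the other 35 on a score of 100 genes higher and 100 genes lower (2.19 to 7.23 against -1.84 to 0.15, log2), with the immediate early genes left out of the score. These divergent libraries were all 3 of OP9-DL1 with LPS at 20 h, all 3 of OP9 with anti-IgM at 20 h, and replicate 3 at 68 h of OP9-DL1 with LPS, OP9 with anti-IgM, OP9 with LPS and OP9 unstimulated. The score genes were picked as those that set these 68 h libraries most apart from the other replicates of their groups. Their own high scores were thus fixed by that choice, and only the scores of the remaining libraries were not. Actb, the beta-actin gene, was at 12355 to 85337 TPM in the 10 divergent libraries and at 217 to 2974 TPM in the other libraries. Comparisons that hold such a library are also given without them where both groups keep other libraries, which was not the case at 20 h for 2 of the groups. Within the 20 h time points the Delta-like 1 contrast and the anti-IgM contrast cannot be told apart from this split, since whole groups are on one side of it. Levels are given as scaled TPM, the deposited TPM divided by a size factor per library (0.442 to 1.43).

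The promoter windows of 4 members are shown here, chosen for where their levels were highest. Each holds 250 bases before and 50 bases after a transcript start in RefSeq, on the GRCm38.p6 build, and 7 of the 9 members had an entry. Nr4a1 and Egr2 had their highest group means with anti-IgM, Fos and Jun had theirs in the Blimp1+ sort, and Jun ran opposite to Egr2. Capitals mark matches, on either strand, to the motifs searched: TGACGTCA (the cAMP response element), its core TGACG, the related TGCGTCA and TGACATCA, TGANTCA (AP-1), GCGNGGGCG (EGR) and the CArG box, the site of serum response factor.
Nr4a1: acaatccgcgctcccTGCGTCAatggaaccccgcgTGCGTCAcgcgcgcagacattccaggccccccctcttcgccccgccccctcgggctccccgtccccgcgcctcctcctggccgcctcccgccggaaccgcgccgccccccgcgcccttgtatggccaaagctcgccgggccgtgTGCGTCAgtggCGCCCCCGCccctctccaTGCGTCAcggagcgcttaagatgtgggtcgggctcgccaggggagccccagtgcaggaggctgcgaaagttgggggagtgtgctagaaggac
Egr2: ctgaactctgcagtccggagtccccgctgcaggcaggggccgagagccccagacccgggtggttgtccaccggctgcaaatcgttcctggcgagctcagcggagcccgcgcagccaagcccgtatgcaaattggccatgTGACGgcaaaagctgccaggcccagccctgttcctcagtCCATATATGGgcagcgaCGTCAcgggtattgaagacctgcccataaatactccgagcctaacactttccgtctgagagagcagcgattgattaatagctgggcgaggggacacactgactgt
Fos: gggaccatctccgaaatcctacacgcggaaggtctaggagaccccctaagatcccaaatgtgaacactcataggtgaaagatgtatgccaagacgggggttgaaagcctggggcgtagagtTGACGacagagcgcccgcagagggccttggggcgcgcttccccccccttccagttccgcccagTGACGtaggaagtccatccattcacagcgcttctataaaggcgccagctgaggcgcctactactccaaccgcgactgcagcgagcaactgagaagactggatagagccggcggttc
Jun: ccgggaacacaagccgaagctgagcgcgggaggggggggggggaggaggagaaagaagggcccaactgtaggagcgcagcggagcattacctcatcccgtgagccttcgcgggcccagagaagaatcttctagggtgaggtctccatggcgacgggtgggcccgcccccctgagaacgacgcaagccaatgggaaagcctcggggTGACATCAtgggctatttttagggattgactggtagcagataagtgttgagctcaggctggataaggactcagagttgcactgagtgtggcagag

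The Nr4a1 window (chr15:101266596-101266895, + strand) lies inside the gene, which spans chr15:101253902-101274795, at an internal start. It holds 4 TGCGTCA matches, each of which also contains the core, and 1 EGR match. Of 32851 promoter windows of this length, 2.12% hold TGCGTCA and 5.55% hold the EGR motif. The Egr2 window (chr10:67537619-67537918, + strand), 1 of 5 entries for the gene and also inside its span (chr10:67534469-67542188), holds 2 cores and 1 CArG box. The core is in 20.8% of windows and CArG boxes in 1.63%. The Fos window (chr12:85473640-85473939, + strand) ends in the first bases of the gene at chr12:85473890-85477274 and holds 2 cores. The Jun window (chr4:95052173-95052472, - strand; gene at chr4:95049036-95052222) holds 1 TGACATCA, found in 3.62% of windows. None of these 4 windows holds TGACGTCA (1.79% of windows) or TGANTCA (7.81%). TGCGTCA and TGACATCA were added to the search with these sequences in view. Matches are descriptions of letters and were not tested as binding sites.

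Levels across the 15 groups separated the genes into different patterns. Junb was the most abundant member, with a median of 212 scaled TPM over 45 libraries, followed by Nr4a1 at 45.4 and Egr1 at 22.7. Nr4a3 and Egr3 were the least abundant of the tested members, with medians of 0.734 and 0.854, and they were listed at 0 in 2 and 7 libraries. Their values rest on few reads, 0 to 248 estimated reads per library for Nr4a3 and 0 to 293 for Egr3, against 12.9 to 7823 for Nr4a1.

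**Figure D1:**
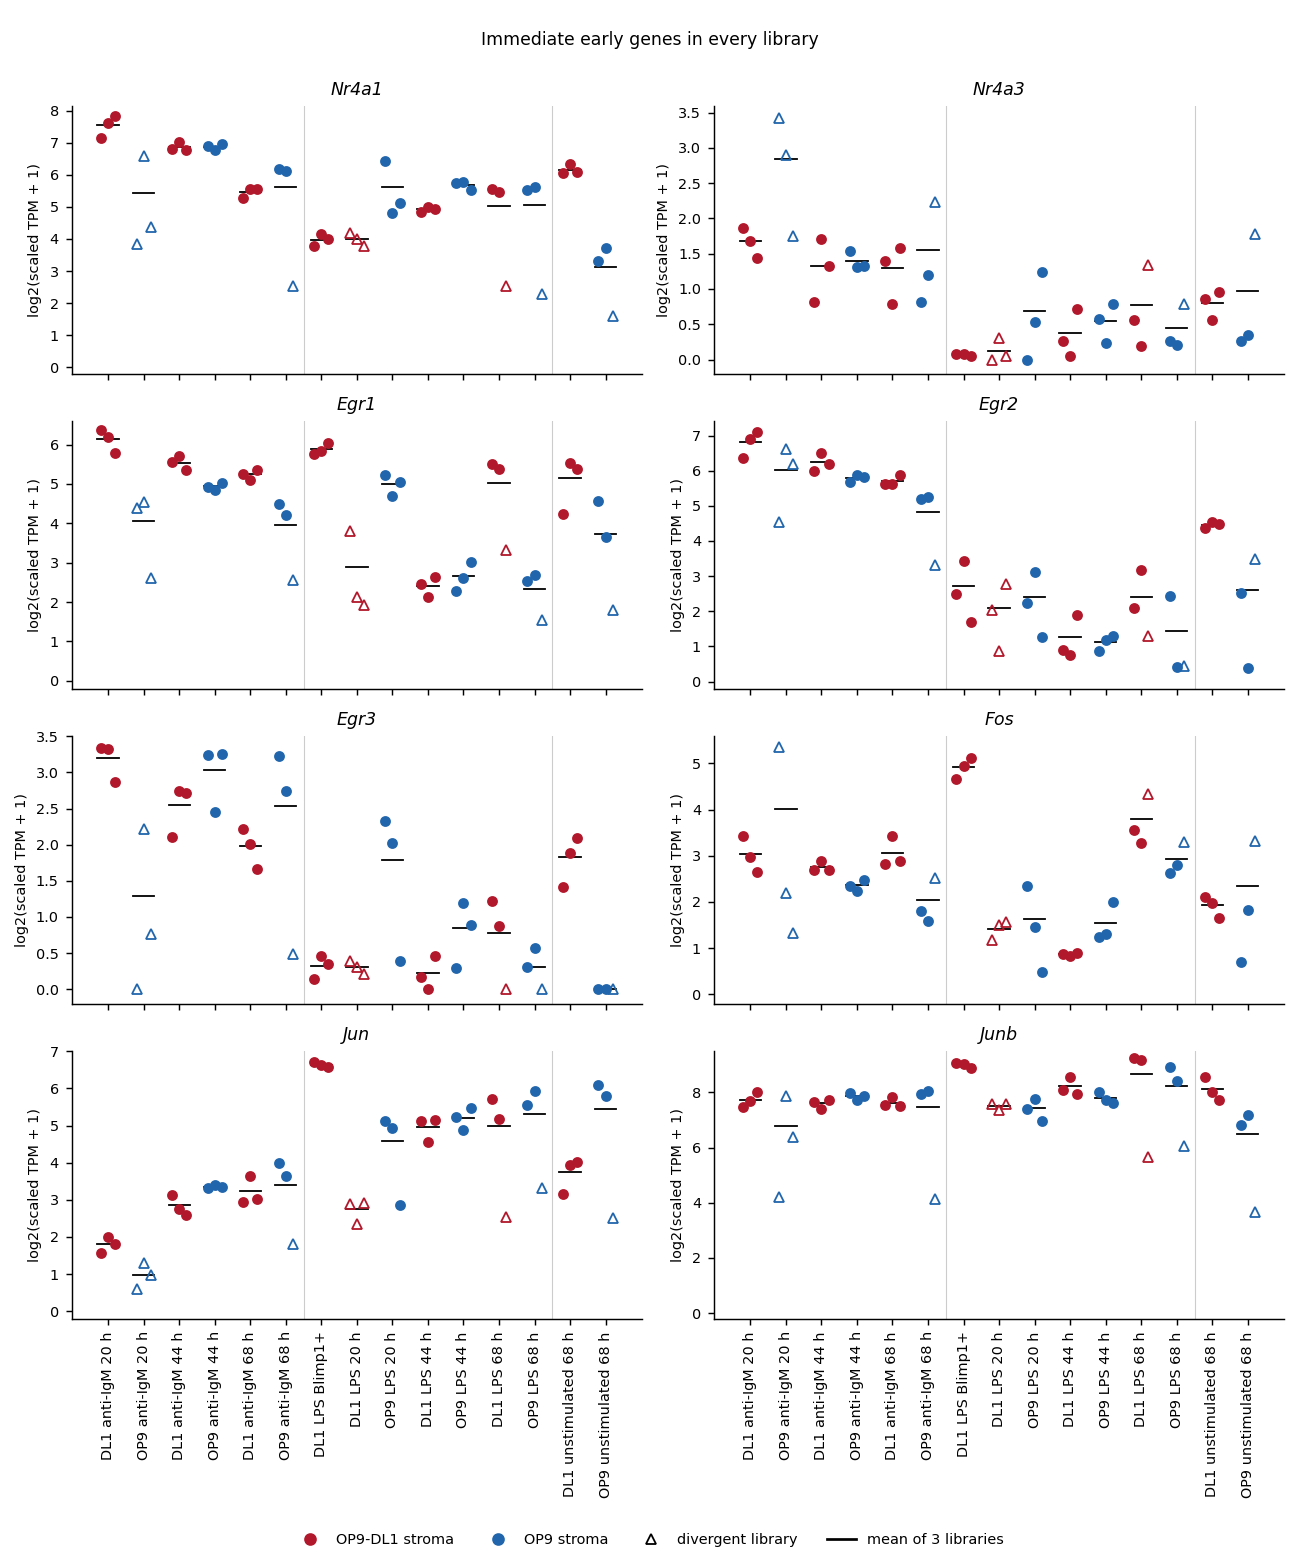
Level of each tested immediate early gene in every library, as log2(scaled TPM + 1) on the vertical axis, with groups on the horizontal axis, OP9-DL1 in red and OP9 in blue, divergent libraries as open triangles and a bar at the mean of 3 libraries. Egr2 lies between 9.05 and 135 scaled TPM in the 18 anti-IgM libraries, above its range of 0.344 to 8.12 in the 18 LPS culture libraries, whereas Jun reaches 94.6 to 104 in the Blimp1+ sort and stays between 0.519 and 14.98 with anti-IgM.

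For Egr2 the highest group means were in anti-IgM cells on OP9-DL1 at 20 h (112 ± 27.3 scaled TPM, SD, n = 3) and at 44 h (74.3 ± 13.4), and its lowest were in LPS cells at 44 h on OP9-DL1 (1.42 ± 1.11) and on OP9 (1.18 ± 0.32). Unstimulated cells on OP9-DL1 stood between these extremes at 21.1 ± 1.17, and their libraries did not overlap those of the next group down, the Blimp1+ sort at 5.55 ± 3.89. Nr4a1 was highest in anti-IgM cells on OP9-DL1 at 20 h, at 188 ± 44.6, and its libraries there did not overlap the next group, anti-IgM cells on OP9 at 44 h (117 ± 6.99). Its lowest group was unstimulated cells on OP9, at 7.69 ± 5.16. In between, 8 neighbouring groups from 50.3 to 29.4 scaled TPM overlapped one another in turn. Some of these hold divergent libraries, and anti-IgM cells on OP9 at 20 h hold no others. Without the divergent library, anti-IgM cells on OP9 at 68 h averaged 70.2 rather than 48.4, beside 70.6 in unstimulated cells on OP9-DL1. LPS cells at 68 h then averaged 46.7 on OP9 and 44.6 on OP9-DL1.

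Egr1 was highest in anti-IgM cells on OP9-DL1 at 20 h (69.3 ± 14.1) and in the Blimp1+ sort (58.1 ± 5.94), which overlapped, and lowest in LPS cells on OP9 at 68 h (4.06 ± 1.90). Egr3 ran from 8.15 ± 1.63 in anti-IgM cells on OP9-DL1 at 20 h down to 0 in all 3 libraries of unstimulated cells on OP9, and all of the neighbouring groups in its order overlapped. Nr4a3 was highest in anti-IgM cells on OP9 at 20 h, all divergent, at 6.19 ± 3.70, and all of its neighbouring groups overlapped.

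The AP-1 members peaked elsewhere. Fos (29.2 ± 4.63), Jun (98.9 ± 4.62) and Junb (514 ± 33.8) had their highest group mean in the Blimp1+ sort, and for Jun no other group reached it. The Junb order rests on 1 divergent library: LPS cells on OP9-DL1 at 68 h were at 603, 582 and 49.6, and without the last value their mean was 592, above the sort. Jun was lowest with anti-IgM at 20 h, at 2.48 ± 0.517 on OP9-DL1 and 0.975 ± 0.462 on OP9. Fos was lowest in LPS cells on OP9-DL1 at 44 h, at 0.823 ± 0.032. Junb ranged from 113 to 603 scaled TPM outside the divergent libraries.

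Anti-IgM was compared with LPS at each time on each stroma to ask which early genes separate antigen receptor from Toll-like receptor stimulation. Egr2 was higher with anti-IgM in all 6 comparisons, and Egr3, its close relative, in 4. Egr1 was higher in 3, Nr4a3 in 2, and Nr4a1 and Fos in 1 each. Jun was lower in 1 of 6, and Junb was called in none. With all libraries, every Nr4a1, Nr4a3, Fos and Jun call was at 20 h. There a whole group was divergent, so the stimulus cannot be told apart from that split. Across the 6 comparisons 2.91 to 28.5% of all genes were called in either direction. Calls are at an adjusted p below 0.05, by limma with Benjamini-Hochberg adjustment over 15614 genes.

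At 44 h, where no library was divergent, Egr2 stood at 62.5, 88.9 and 71.5 scaled TPM in anti-IgM cells on OP9-DL1, against 0.857, 0.700 and 2.69 in LPS cells. All 3 anti-IgM libraries were far above all 3 LPS libraries. The log2 difference was 5.04 ± 0.65 (SE, adjusted p = 2.3e-06, limma). On OP9 at 44 h Egr2 stood at 50.4, 57.2 and 55.8 with anti-IgM, against 0.825, 1.28 and 1.44 with LPS, a log2 difference of 4.68 ± 0.65 (adjusted p = 4.8e-06). In both stromas the groups were thus separated by a gap many times the spread within them. These are bulk measurements, in which fewer cells that express a gene and less RNA per cell cannot be told apart.

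Egr1, the most general of the EGR genes in its responses, was at 45.8, 51.0 and 39.9 with anti-IgM on OP9-DL1 at 44 h, against 4.47, 3.35 and 5.22 with LPS. The groups did not overlap, and the log2 difference was 3.13 ± 0.58 (adjusted p = 0.00058, limma). On OP9 at 44 h it was at 29.4, 27.8 and 31.8 with anti-IgM, against 3.88, 5.08 and 7.15 with LPS, a log2 difference of 2.30 ± 0.58 (adjusted p = 0.0082). Egr3 was at 3.29, 5.68 and 5.60 on OP9-DL1 with anti-IgM, against 0.120, 0 and 0.370 with LPS. Its groups did not overlap on either stroma, and its log2 differences of 2.32 ± 0.51 on OP9-DL1 and 2.19 ± 0.51 on OP9 were called (adjusted p = 0.0040 and 0.0037).

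In all, 3 of 8 members were called at 44 h on OP9-DL1, where 2.91% of all genes tested were called, and 3 of 8 on OP9, where 8.63% were. The median log2 difference over the 8 members was 1.92 on OP9-DL1 and 1.04 on OP9, against 0.00 and 0.04 over all genes. Nr4a1 was at 111, 130 and 109 with anti-IgM on OP9-DL1 at 44 h, against 27.7, 31.1 and 29.3 with LPS. On OP9 it was at 119, 109 and 123 with anti-IgM, against 52.0, 53.4 and 45.4 with LPS. Its groups did not overlap on either stroma, but the log2 differences of 1.95 ± 0.78 and 1.20 ± 0.78 were not called (adjusted p = 0.26 and 0.48).

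Those adjusted p-values use a common spread estimated over all 45 libraries, the divergent ones included. With the 10 libraries left out, values at 44 h were the same and 7 of 8 members were called on OP9-DL1, where 8.7% of all genes were, and 6 of 8 on OP9, where 19.7% were. Nr4a1 was then called on both stromas (adjusted p = 2.9e-06 on OP9-DL1 and 0.00071 on OP9), as was Nr4a3 (log2 0.94 and 0.87, adjusted p = 0.027 and 0.023). On OP9-DL1 Fos was also called in that fit, at 5.45, 6.41 and 5.45 scaled TPM with anti-IgM against 0.828, 0.789 and 0.853 with LPS (log2 1.89, adjusted p = 0.00025). On OP9 its log2 difference was 0.84 (adjusted p = 0.078). A fit of the compared groups alone called 6 of 8 members on OP9-DL1, 5 higher and 1 lower, where 15.6% of all genes were called. On OP9 it called 7 of 8, 6 higher and 1 lower, where 32% of all genes were called.

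Jun ran the other way. With anti-IgM at 44 h it was at 7.74, 5.79 and 5.06 on OP9-DL1, against 33.6, 22.5 and 34.3 with LPS. On OP9 it was at 8.95, 9.55 and 9.13 with anti-IgM, against 36.6, 28.4 and 43.4 with LPS. Every anti-IgM library lay below every LPS library on both stromas. The log2 differences of -2.11 ± 0.72 and -1.84 ± 0.72 were not called with all libraries (adjusted p = 0.13 and 0.12, limma) and were called without the divergent ones (adjusted p = 0.00024 and 0.00051). The Egr1 and Egr3 calls on OP9 at 44 h were lost in the authors' log2 table (log2 2.65 and 3.44, adjusted p = 0.050 and 0.083). Junb, another AP-1 subunit, had 193 ± 23.7 with anti-IgM and 299 ± 68.9 with LPS on OP9-DL1, and 232 ± 18.9 and 223 ± 32.8 on OP9. It was not called with all libraries or without the divergent ones.

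**Figure D2:**
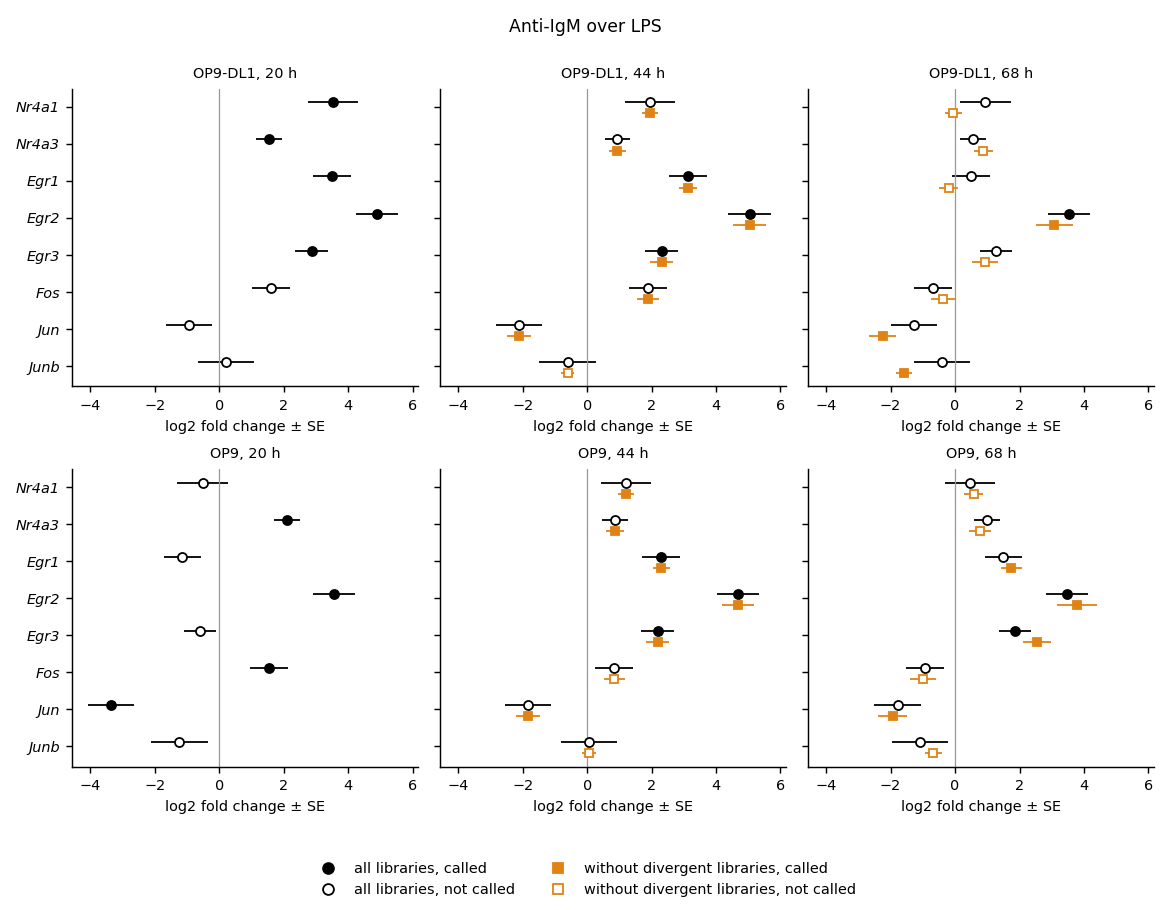
Log2 difference of anti-IgM over LPS with its standard error for each member, by stroma and time, with circles for all libraries and squares without divergent libraries, filled where called; no squares could be drawn at 20 h. Egr2 lies between 3.49 and 5.04 with all libraries in all 6 panels, while Jun lies between -3.35 and -0.94.

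At 20 h each comparison set a wholly divergent group against a group with no divergent library, so every value carries that split as well. On OP9-DL1, with the LPS group divergent, 5 of 8 members were called higher with anti-IgM (7.11% of all genes called in either direction). These were Nr4a1, Nr4a3, Egr1, Egr2 and Egr3. Egr1 was at 81.4, 72.7 and 53.8 with anti-IgM, against 12.9, 3.34 and 2.82 with LPS. Egr3 was at 9.14, 9.05 and 6.27 with anti-IgM, against 0.310, 0.242 and 0.157 with LPS. Nr4a1 was at 140, 195 and 228 with anti-IgM, against 17.4, 15.1 and 12.7 with LPS (log2 3.54 ± 0.78, adjusted p = 0.0036), with no overlap. On OP9, with the anti-IgM group divergent, 3 members were called higher and 1 lower (28.5% of all genes called). Nr4a1 was at 13.3, 94.6 and 19.6 there with anti-IgM, against 84.6, 26.7 and 33.6 with LPS, overlapping and not called (log2 -0.52 ± 0.78, adjusted p = 0.67). Egr2 was called at 20 h on both stromas, with log2 differences of 4.89 ± 0.65 on OP9-DL1 and 3.56 ± 0.65 on OP9 (adjusted p = 4.8e-06 and 0.00020). In a fit of the compared groups alone no call on OP9 at 20 h remained (adjusted p = 0.063 for Egr2, 0.067 for Jun, 0.14 for Nr4a3 and 0.47 for Fos).

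Also at 20 h, Jun fell to 0.519, 1.44 and 0.961 in anti-IgM cells on OP9, against 33.6, 29.5 and 6.31 in LPS cells (log2 -3.35 ± 0.72, adjusted p = 0.0010). The groups did not overlap. Nr4a3 was higher with anti-IgM on OP9-DL1 (log2 1.54 ± 0.40, adjusted p = 0.014) and on OP9 (2.10 ± 0.40, adjusted p = 0.00032). The first of these calls was lost without any one of anti-IgM replicates 1 and 2 or LPS replicate 3 on OP9-DL1 (log2 1.44, 1.53 and 1.51, adjusted p = 0.066, 0.053 and 0.056). Fos was called on OP9 at 20 h through 1 library: it stood at 40.0, 3.60 and 1.52 with anti-IgM, against 4.09, 1.76 and 0.391 with LPS. Its log2 difference of 1.53 ± 0.59 (adjusted p = 0.049) was 0.34 without anti-IgM replicate 1 (adjusted p = 0.69), 1.55 without LPS replicate 2 (adjusted p = 0.081) and 1.06 without LPS replicate 3 (adjusted p = 0.23). It was also lost under 4 other settings (adjusted p = 0.072 to 0.093).

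At 68 h Egr2 was the only member called on OP9-DL1 (1 of 8, with 4.39% of all genes called), at 48.2, 48.6 and 58.3 with anti-IgM, against 3.24, 8.12 and 1.44 with LPS (log2 3.53 ± 0.65, adjusted p = 0.00051, limma). On OP9 at 68 h Egr2 was at 35.8, 36.9 and 9.05 with anti-IgM, against 4.42, 0.344 and 0.366 with LPS (log2 3.49 ± 0.65, adjusted p = 0.00058). The third value of each OP9 group, and of the LPS group on OP9-DL1, is a divergent library, and the groups did not overlap even so. Egr3 was the other call among 2 of 8 on OP9 (4.56% of all genes), at log2 1.86 ± 0.51 with overlapping groups (adjusted p = 0.023). That call was lost without any one of anti-IgM replicates 1 and 2 and LPS replicates 1 and 3 (adjusted p = 0.17, 0.11, 0.075 and 0.10; log2 1.32, 1.57, 1.87 and 1.72), with quantile normalization (0.065) and in the authors' log2 table (0.099). In a fit of the compared groups alone neither call on OP9 remained (adjusted p = 0.19 for Egr2 and 0.49 for Egr3).

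With the divergent libraries left out at 68 h, Egr2 kept its call on both stromas (log2 3.08 on OP9-DL1 and 3.79 on OP9, adjusted p = 0.00055 and 0.00015), where 7.61% and 7.94% of all genes were called. Egr3 kept its call on OP9 (log2 2.55, adjusted p = 0.00027). Jun was then lower with anti-IgM on both (log2 -2.25 and -1.93, adjusted p = 0.00051 and 0.0062). Junb was lower on OP9-DL1 (log2 -1.59, adjusted p = 3.7e-05), and on OP9 its value was -0.67 (adjusted p = 0.13). Egr1 was higher on OP9 only (log2 1.74, adjusted p = 0.00070), with -0.20 on OP9-DL1 (adjusted p = 0.83). With single libraries left out on OP9, Egr1 was called without anti-IgM replicate 3 (log2 2.10, adjusted p = 0.037) and Jun without LPS replicate 3 (log2 -2.59, adjusted p = 0.046).

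The T cell marker list was checked beside the anti-IgM results because its kinase Lck, which relays T cell receptor signals, followed Egr2. Lck was at 79.9 to 380 scaled TPM in the 18 anti-IgM libraries, against 15.2 to 52.3 in the 18 LPS culture libraries. The list without Lck and Cd5 summed to 1.72 to 14.7 with anti-IgM (median 4.24) and 0.425 to 5.88 with LPS (median 1.52). Of the other listed genes, Cd3e was at 0 in 33 of 45 libraries and at no more than 0.738 TPM in any. Trac was at 0 in 37 libraries and reached 2.93 TPM, whereas Cd3d was above 0 in all 45 and reached 2.69. Cd3g, Cd4, Cd5 and Cd8a reached 17.0, 5.80, 10.3 and 2.28 TPM, and were at 0 in 18, 21, 6 and 2 libraries. At 44 h the B cell marker sum was 10668 to 11543 scaled TPM with anti-IgM and 8913 to 9147 with LPS on OP9-DL1, and 18288 to 20608 and 9113 to 9949 on OP9. Stromal markers summed to 80.2 to 186 with anti-IgM and 26.1 to 54.5 with LPS on OP9-DL1, and to 72.6 to 153 and 30.7 to 80.3 on OP9. Myeloid markers summed to 5.54 to 8.49 and 1.59 to 3.10 on OP9-DL1, and to 5.47 to 6.14 and 3.48 to 5.95 on OP9. The sums of the 3 lists thus did not overlap on OP9-DL1, and on OP9 those of stromal and myeloid markers did. By single genes, 0 of 11 stromal and 0 of 6 myeloid markers were called on either stroma by limma, and 0 of 10 B cell markers on OP9-DL1 and 1 on OP9. Heat shock and handling genes moved with the OP9 contrast at 44 h, with a sum of 3128 to 3370 scaled TPM with anti-IgM and 7143 to 7754 with LPS, and not with that on OP9-DL1, with 5541 to 5838 and 5593 to 6583. The part of other cells and of handling in the differences was not tested.

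Stimulated cells were compared with unstimulated cells at 68 h. On OP9, Egr2 and Egr3 were higher with anti-IgM, 2 of 8 members called, where 23.9% of all genes were called. Egr2 was at 35.8, 36.9 and 9.05 with anti-IgM, against 4.71, 0.310 and 10.2 unstimulated (log2 2.46 ± 0.65, adjusted p = 0.0042, limma). The divergent replicate 3 of each group made them overlap. The call was lost without unstimulated replicate 2 (log2 1.59, adjusted p = 0.084). Egr3 was at 8.37, 5.67 and 0.399 with anti-IgM and was listed at 0 in all 3 unstimulated libraries (adjusted p = 0.0013), so no fold is given. In a fit of the compared groups alone neither was called (adjusted p = 0.26 and 0.22). In the fit without divergent libraries, where 39% of all genes were called, Nr4a1, Egr2 and Junb were higher with anti-IgM (log2 2.64, 3.77 and 0.99, adjusted p = 6.4e-08, 1.6e-05 and 0.0032), as was Egr3, and Jun was lower (log2 -2.14, adjusted p = 0.00035). Nr4a1 was also called without anti-IgM replicate 3 (log2 3.28, adjusted p = 0.00097) or unstimulated replicate 2 (2.49, adjusted p = 0.036), and Nr4a3 (1.11, adjusted p = 0.037) and Jun (-2.80, adjusted p = 0.0014) without unstimulated replicate 3.

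LPS on OP9 gave no member call by limma with all libraries, with 2 of 8 at an unadjusted p below 0.05, where 30.5% of all genes were called. Without the divergent libraries, 4 of 8 members and 39.6% of all genes were called. Nr4a1 was at 45.4 and 48.1 with LPS, against 9.02 and 12.04 unstimulated (log2 2.06, adjusted p = 3.0e-06). Junb was at 484 and 341 with LPS, against 113 and 146 unstimulated (log2 1.66, adjusted p = 7.3e-06). Fos was also higher (log2 1.45, adjusted p = 0.0052), and Egr1 was lower, at 4.78 and 5.49 with LPS, against 22.7 and 11.6 unstimulated (log2 -1.4995, adjusted p = 0.00046). The retained libraries of these groups did not overlap for Nr4a1, Junb, Egr1 or Fos. That separation is of 2 against 2 libraries, and the share of all genes that showed it was not counted. Leaving out single libraries also gave calls of Nr4a1 (without LPS replicate 3, log2 2.71, adjusted p = 0.0079), Junb (without LPS replicate 3 or unstimulated replicate 2, 2.78 and 2.56, adjusted p = 0.023 and 0.042), Egr2 (without unstimulated replicate 2, -1.89, adjusted p = 0.028), and Egr1 and Fos (without unstimulated replicate 3, -1.86 and 1.64, adjusted p = 0.013 and 0.038).

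Markers of other cells moved with both stimuli on OP9. Stromal markers summed to 64.7 to 99.7 scaled TPM with LPS and 87.1 to 144 with anti-IgM, against 1516 to 13452 unstimulated, and myeloid markers to 3.26 to 5.89 and 4.71 to 13.8, against 48.0 to 148. With LPS 11 of 11 stromal and 5 of 6 myeloid markers were lower and 6 of 10 B cell markers higher, and with anti-IgM these counts were 11, 4 and 8. On OP9-DL1 the stromal sums were 37.1 to 134 with LPS and 50.7 to 78.8 with anti-IgM, against 109.6 to 221 unstimulated, with 1 and 0 of 11 markers called lower. The part of these cells in the member differences was not tested.

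On OP9-DL1, Egr2 with LPS fell to 3.24, 8.12 and 1.44, against 19.9, 22.2 and 21.2 unstimulated (log2 -2.28 ± 0.65, adjusted p = 0.023, limma), the only call among 8 members (8.10% of all genes). The groups did not overlap. The call was lost without any one of LPS replicates 1 and 3 and of the 3 unstimulated libraries (log2 -2.32 to -1.83, adjusted p = 0.058 to 0.15). It was also lost in the authors' log2 table (adjusted p = 0.080), with a pseudocount of 0.1 (0.070) and in a fit of the compared groups alone (0.085). Without the divergent library the difference was -1.83 (adjusted p = 0.026; 16.5% of all genes called), and Fos, Jun and Junb were higher with LPS (log2 1.51, 1.75 and 1.11, adjusted p = 0.0051, 0.0035 and 0.0014). Junb had a log2 value of -0.07 with all libraries.

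Anti-IgM on OP9-DL1 gave no member call by limma with all libraries and none at an unadjusted p below 0.05, where 9.52% of all genes were called. No library of these groups was divergent. Nr4a1 was at 37.8, 45.7 and 45.7 with anti-IgM, against 65.4, 79.3 and 67.1 unstimulated, and Egr2 was at 48.2, 48.6 and 58.3, against 19.9, 22.2 and 21.2 unstimulated. Neither gene's groups overlapped. With the divergent libraries of other groups out of the fit (26.4% of all genes called), Nr4a1 was called lower (log2 -0.70, adjusted p = 0.037) and Fos higher (1.13, adjusted p = 0.013). Egr2, at log2 1.25 (adjusted p = 0.26 with all libraries and 0.069 without the divergent ones), was called in the fit of the compared groups alone (adjusted p = 0.0023).

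The effect of Delta-like 1 was read by setting OP9-DL1 against OP9 at each stimulus and time. In unstimulated cells at 68 h, 4 of 8 members were called: Nr4a1, Egr1, Egr2 and Egr3, all higher on OP9-DL1. There 26.5% of all genes were called, 1380 higher and 2752 lower, or 2004 higher and 1982 lower on TPM as deposited. The median log2 difference over the 8 members was 1.75, against -0.19 over all genes. Without the divergent library, 6 of 8 members and 41.8% of all genes were called.

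Nr4a1 stood at 65.4, 79.3 and 67.1 scaled TPM on OP9-DL1, against 9.02, 12.04 and 1.99 on OP9. The groups did not overlap, and the gap remained with OP9 replicate 3, the divergent and lowest library, set aside. The log2 difference was 3.29 ± 0.78 with all libraries (adjusted p = 0.0015, limma) and 2.64 without the divergent one (adjusted p = 1.3e-08). Egr2 stood at 19.9, 22.2 and 21.2 on OP9-DL1, against 4.71, 0.310 and 10.2 on OP9. Again no library overlapped, and the log2 difference was 2.33 ± 0.65 (adjusted p = 0.0065), or 3.01 without the divergent library (adjusted p = 8.9e-05). It was 1.46 and not called without OP9 replicate 2 (adjusted p = 0.10).

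Egr3 stood at 1.66, 2.70 and 3.29 on OP9-DL1 and was listed at 0 in all 3 libraries on OP9 (adjusted p = 0.0068, or 0.00059 without the divergent library), so no fold is given. Egr1 stood at 17.99, 44.9 and 40.3 on OP9-DL1, against 22.7, 11.6 and 2.45 on OP9, with overlap. Its log2 difference of 1.71 ± 0.58 (adjusted p = 0.026) was 0.93 without the divergent library (adjusted p = 0.013). Leaving out OP9 replicate 3 alone gave 0.93 (adjusted p = 0.26), and leaving out OP9-DL1 replicates 2 or 3 gave 1.47 and 1.54 (adjusted p = 0.11 and 0.094). A fit of the compared groups alone called Nr4a1 and Egr3 (adjusted p = 0.035 and 0.036) but not Egr1 and Egr2 (0.24 and 0.13). It called 7.07% of all genes.

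The AP-1 members differed among themselves. Jun stood at 7.92, 14.2 and 15.2 on OP9-DL1, against 67.7, 54.9 and 4.64 on OP9, where the last value is the divergent library. Its log2 difference was -1.10 ± 0.72 with all libraries (adjusted p = 0.28) and -2.25 without all divergent libraries (adjusted p = 6.1e-05) or without OP9 replicate 3 alone (adjusted p = 0.010). Junb stood at 373, 257 and 212 on OP9-DL1, against 113, 146 and 11.6 on OP9, without overlap. It was not called with all libraries (log2 2.20 ± 0.88, adjusted p = 0.060) and was called without the divergent one (1.09, adjusted p = 0.00049) and without OP9 replicate 2 (2.86, adjusted p = 0.026). Fos and Nr4a3 had log2 differences of -0.04 and -0.01 and overlapping groups.

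Markers of other cells moved with this contrast. The list of stromal markers took 0.0134 to 0.0317% of TPM in unstimulated OP9-DL1 libraries, against 0.1003 to 1.43% in unstimulated OP9 libraries and at most 0.036% in the other 42 libraries. Myeloid markers summed to 4.41 to 12.4 scaled TPM on OP9-DL1, against 48.0 to 148 on OP9. B cell markers summed to 28346 to 32208 on OP9-DL1, against 2354 to 12786 on OP9. Of the lists, 11 of 11 tested stromal markers and 3 of 6 myeloid markers were lower on OP9-DL1, and 7 of 10 B cell markers were higher. The part of these cells in the differences of the early genes was not tested.

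With anti-IgM the contrast of OP9-DL1 over OP9 was read at each time, and differences between times were not tested. At 44 h, where no library was divergent, no member was called by limma and none had an unadjusted p below 0.05 (0.897% of all genes called). Nr4a1 averaged 117 ± 11.8 on OP9-DL1 and 117 ± 6.99 on OP9 (log2 0.00 ± 0.78). Egr1 (45.5 ± 5.57 and 29.6 ± 2.01), Egr2 (74.3 ± 13.4 and 54.5 ± 3.61) and Fos (5.77 ± 0.553 and 4.12 ± 0.409) had every OP9-DL1 library above every OP9 library, and Jun and Junb had every OP9-DL1 library below. Groups thus did not overlap in 5 of 8 members, and in 33.9% of all genes. Egr1 was called in the fit of the compared groups alone (adjusted p = 0.018), where 16% of all genes were called.

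At 20 h with anti-IgM, all 3 OP9 libraries were divergent. Nr4a1 (188 ± 44.6 on OP9-DL1, 42.5 ± 45.3 on OP9, log2 2.60 ± 0.78, adjusted p = 0.021), Egr1 (69.3 ± 14.1 and 15.8 ± 9.32, log2 2.27 ± 0.58, adjusted p = 0.0093) and Egr3 (8.15 ± 1.63 and 1.44 ± 1.93, log2 2.19 ± 0.51, adjusted p = 0.0053) were higher on OP9-DL1. These are 3 of 8 members, where 20.5% of all genes were called, and in a fit of the compared groups alone none was (adjusted p = 0.077, 0.063 and 0.080). Nr4a1 lost its call without OP9-DL1 replicate 2 or 3 or OP9 replicate 1 or 3 (log2 2.56, 2.45, 2.06 and 2.32, adjusted p = 0.061, 0.066, 0.14 and 0.062). Egr1 lost its call without OP9 replicate 3 (log2 1.65, adjusted p = 0.057) and Egr3 without OP9 replicate 1 (log2 1.69, adjusted p = 0.053). Nr4a3 was called lower on OP9-DL1 without OP9 replicate 3 (log2 -1.5005, adjusted p = 0.019).

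At 68 h with anti-IgM no member was called by limma with all libraries, and 1 had an unadjusted p below 0.05 (1.73% of all genes called). Without the divergent OP9 library (5.87% of all genes called), Fos was higher on OP9-DL1, at 6.03, 9.74 and 6.41, against 2.51 and 2.02 on OP9 (log2 1.34, adjusted p = 0.030). Nr4a1 was then at 37.8, 45.7 and 45.7 on OP9-DL1, against 71.4 and 69.0 on OP9, and was not called (log2 -0.70, adjusted p = 0.15). With all libraries its value had the opposite sign (log2 0.51, adjusted p = 0.74).

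With LPS the contrast gave 1 member call in 3 times. At 20 h, with all OP9-DL1 libraries divergent, Egr1 was lower on OP9-DL1, at 12.9, 3.34 and 2.82, against 36.4, 24.8 and 32.0 on OP9 (log2 -2.37 ± 0.58, adjusted p = 0.0084, limma; 1 of 8 members and 8.81% of all genes called). The groups did not overlap. Without OP9-DL1 replicate 2 or 3 the call was lost (log2 -2.12 and -2.03, adjusted p = 0.056 and 0.062), as it was in a fit of the compared groups alone (0.12). Egr3 was called lower on OP9-DL1 without OP9 replicate 3 (log2 -1.87, adjusted p = 0.020).

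At 44 h with LPS no member was called by limma, none had an unadjusted p below 0.05, and 0.16% of all genes were called. Nr4a1 was at 27.7, 31.1 and 29.3 on OP9-DL1, against 52.0, 53.4 and 45.4 on OP9, without overlap (log2 -0.75 ± 0.78). It was called in the fit of the compared groups alone (adjusted p = 0.046) and not without the divergent libraries (adjusted p = 0.29). The first of these fits called 0.833% of all genes and the second 0.698%.

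At 68 h with LPS no member was called by limma with all libraries, 1 had an unadjusted p below 0.05, and 0.064% of all genes were called. That member was Egr1, at 44.4, 40.5 and 9.08 on OP9-DL1, against 4.78, 5.49 and 1.90 on OP9, where the last value of each is divergent. Every OP9-DL1 library was above every OP9 library (log2 2.48 ± 0.58, adjusted p = 0.12). Without both divergent libraries the log2 difference was 2.83 and was called (adjusted p = 5.7e-05; 0.147% of all genes). Without OP9-DL1 replicate 3 alone it was 3.18 (adjusted p = 0.021).

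**Figure D3:**
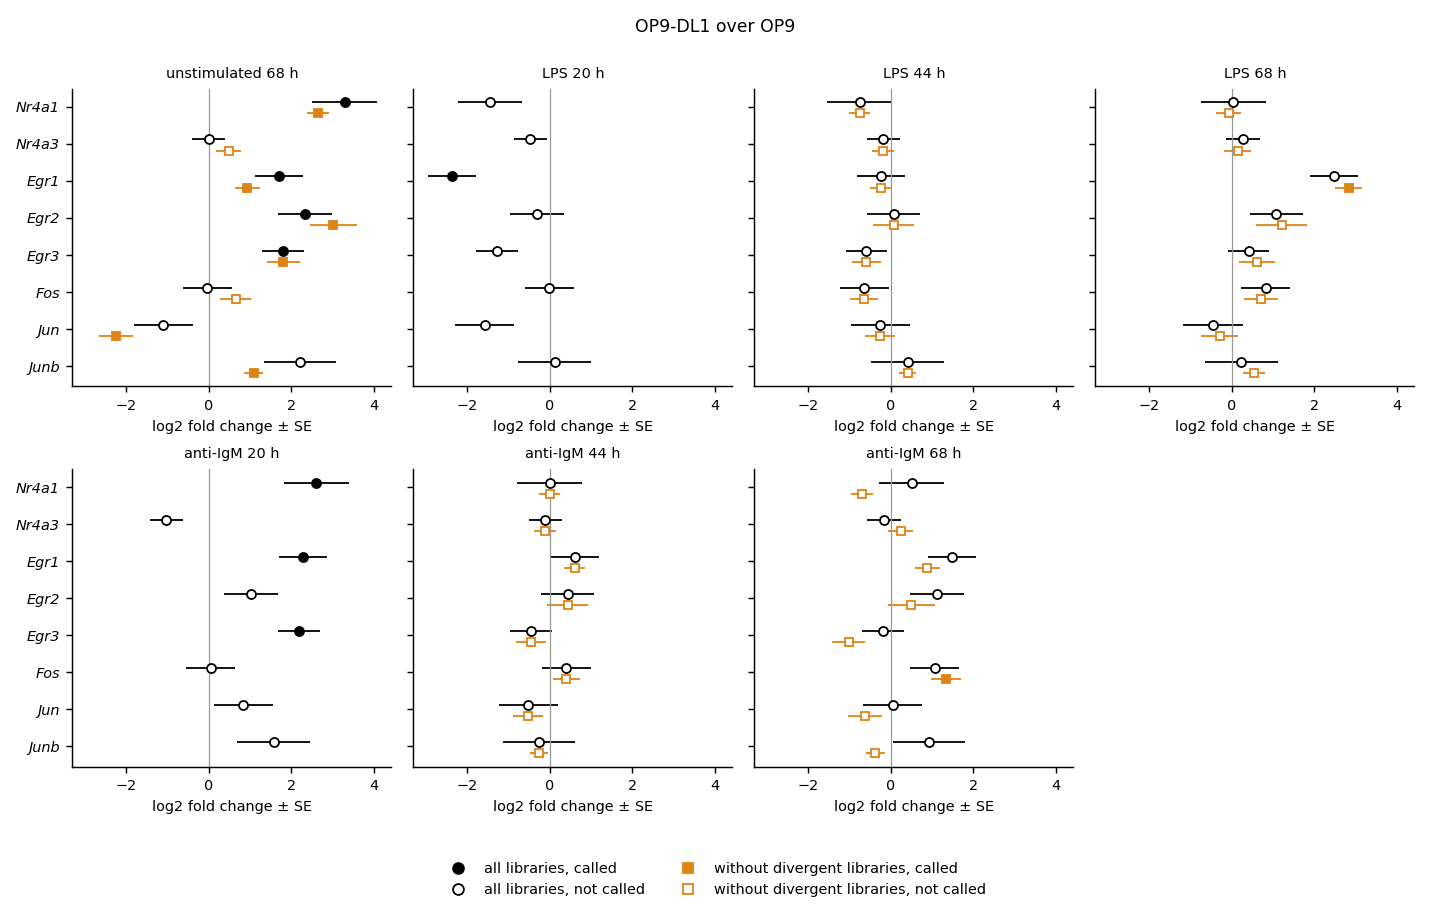
Log2 difference of OP9-DL1 over OP9 with its standard error for each member, by stimulus and time, with circles for all libraries and squares without divergent libraries, filled where called; no squares could be drawn at 20 h. Unstimulated cells hold 4 called members between 1.71 and 3.29, and at 44 h no member is called with either stimulus. Egr3 in unstimulated OP9 cells was listed at 0, so its drawn value there depends on the pseudocount of 1.

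Whether the effect of Delta-like 1 itself differed between stimuli was tested with interaction terms at 44 and 68 h. The Nr4a1 effect with LPS at 68 h differed from its effect in unstimulated cells by a log2 of -3.24 ± 1.11 (adjusted p = 0.040, limma), the only call among 8 members, where 16.1% of all genes were called. Nr4a1 averaged 31.3 ± 23.0 on OP9-DL1 and 32.5 ± 24.8 on OP9 with LPS, beside 70.6 ± 7.57 and 7.69 ± 5.16 in unstimulated cells. With the divergent libraries left out the difference was -2.71 (adjusted p = 1.2e-05; 26.6% of all genes called), and terms for Egr1 (1.90) and Jun (1.96) were called too (adjusted p = 0.0016 and 0.017). The call was lost without any one of 8 of the 12 libraries, OP9-DL1 LPS replicate 3, OP9-DL1 unstimulated replicates 1, 2 and 3, OP9 LPS replicates 1 and 2 and OP9 unstimulated replicates 1 and 3 (log2 -3.47 to -2.26, adjusted p = 0.053 to 0.20), and under 5 other settings (adjusted p = 0.053 to 0.23).

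The term of anti-IgM against unstimulated cells at 68 h gave no member call by limma with all libraries and 2 at an unadjusted p below 0.05 (15.6% of all genes called). Leaving out the divergent libraries, it was called for 5 of 8 members and 36.1% of all genes: Nr4a1 (-3.34), Egr2 (-2.52), Egr3 (-2.82), Jun (1.64) and Junb (-1.46), with adjusted p = 2.5e-07, 0.015, 0.00028, 0.028 and 0.0011. Leaving out OP9 anti-IgM replicate 3 alone was enough for Nr4a1 and Egr3 (-3.98 and -2.82, adjusted p = 0.0047 and 0.0016). Egr3 was listed at 0 in unstimulated cells on OP9, so the size of its terms depends on the pseudocount of 1. These terms share the unstimulated libraries with the LPS terms and with the stromal difference given above. Anti-IgM against LPS gave no member call at 44 h or at 68 h by limma with all libraries, none at an unadjusted p below 0.05, and 0.0833% and 0.199% of all genes. At 68 h without the divergent libraries it was called for Egr1 (-1.94, adjusted p = 0.038; 0.653% of all genes).

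Time was read within each stimulus and stroma. With LPS on OP9-DL1, Fos and Egr1 were higher late. Fos rose to 10.8, 8.67 and 19.1 at 68 h, against 0.828, 0.789 and 0.853 at 44 h (log2 2.86 ± 0.59, adjusted p = 0.0018, limma). Egr1 rose to 44.4, 40.5 and 9.08 at 68 h, against 4.47, 3.35 and 5.22 at 44 h (log2 2.33 ± 0.58, adjusted p = 0.0094). Neither gene's groups overlapped. These were 2 of 8 members, where 7.18% of all genes were called. Replicate 3 at 68 h is divergent, highest for Fos and lowest for Egr1, and without it both were called (log2 2.55 and 3.04, adjusted p = 2.3e-05 and 1.8e-07; 13.4% of all genes), as was Junb (1.01, adjusted p = 0.0042). The Egr1 call was lost without replicate 1 or 2 at 68 h (log2 1.95 and 2.01, adjusted p = 0.060 and 0.056), on TPM as deposited (0.071), in the authors' log2 table (0.099) and in a fit of the compared groups alone (0.13).

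On OP9 with LPS, Egr1 fell to 3.88, 5.08 and 7.15 at 44 h, against 36.4, 24.8 and 32.0 at 20 h (log2 -2.35 ± 0.58, adjusted p = 0.027, limma; 1 of 8 members and 1.74% of all genes called). No library of these groups was divergent and the groups did not overlap. The call was lost without any one of replicates 1 and 3 at 20 h and replicates 1, 2 and 3 at 44 h (log2 -2.54 to -2.17, adjusted p = 0.060 to 0.15), and under 5 other settings (adjusted p = 0.051 to 0.17), and it held without the divergent libraries of other groups (adjusted p = 1.8e-06; 9.06% of all genes). At 68 h over 44 h no member was called by limma and 1 had an unadjusted p below 0.05 (6.91% of all genes called). Without the divergent library (12.9% of all genes called) Fos (log2 1.20, adjusted p = 0.030) and Junb (0.87, adjusted p = 0.013) were called higher at 68 h.

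With anti-IgM on OP9-DL1 Nr4a1 averaged 188 ± 44.6 at 20 h, 117 ± 11.8 at 44 h and 43.1 ± 4.56 at 68 h, and Egr2 averaged 112 ± 27.3, 74.3 ± 13.4 and 51.7 ± 5.75. No library was divergent and each Nr4a1 step was without overlap. By limma with all libraries no member was called at either step and none had an unadjusted p below 0.05 (0.0576% of all genes called from 20 to 44 h and 0.179% from 44 to 68 h). Without the divergent libraries of other groups, Nr4a1 was lower at 68 h than at 44 h (log2 -1.42, adjusted p = 0.0018; 3.44% of all genes).

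With anti-IgM on OP9 the 20 h libraries were all divergent. Egr3 and Jun were higher at 44 h than at 20 h (log2 1.99 ± 0.51 and 2.40 ± 0.72, adjusted p = 0.0071 and 0.017, limma) and Nr4a3 was lower (log2 -1.30 ± 0.40, adjusted p = 0.021). These were 3 of 8 members, where 24.2% of all genes were called. Egr3 and Jun lost their calls without replicate 1 at 20 h (log2 1.495 and 2.22, adjusted p = 0.071 and 0.074). Nr4a3 lost its call without replicate 1 at 20 h and replicates 2 or 3 at 44 h (log2 -0.93, -1.26 and -1.26, adjusted p = 0.16, 0.060 and 0.060) and under 4 other settings (adjusted p = 0.080 to 0.46). The Egr3 call was also lost in a fit of the compared groups alone (adjusted p = 0.086). Nr4a1 and Junb were called higher at 44 h without replicate 2 at 20 h (log2 2.78 and 2.56, adjusted p = 0.013 and 0.037). At 68 h over 44 h no member was called by limma, and 2 had an unadjusted p below 0.05 (0.0128% of all genes called). Nr4a1 was at 71.4, 69.0 and 4.81 at 68 h, against 119, 109 and 123 at 44 h, where the third value at 68 h is divergent (log2 -1.93 ± 0.78, adjusted p = 0.54). Egr1 and Egr2 also had every 68 h library below every 44 h library (log2 -1.19 and -1.20, adjusted p = 0.60 and 0.63). Without the divergent library no member was called either (0.122% of all genes), with Nr4a1 at -0.73 (adjusted p = 0.49).

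On OP9-DL1 with LPS, where the 20 h libraries were all divergent, no member was called at 44 h over 20 h, and 1 had an unadjusted p below 0.05 (2.21% of all genes called). That was Jun, at 33.6, 22.5 and 34.3 at 44 h, against 6.45, 4.13 and 6.59 at 20 h, without overlap (log2 2.21 ± 0.72, adjusted p = 0.095).

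The Blimp1+ sort was set against unsorted LPS cultures on OP9-DL1, to ask how the early genes stand in cells that have turned on the plasma cell regulator Blimp1. Fos stood at 24.4, 29.7 and 33.6 scaled TPM in the sort, against 0.828, 0.789 and 0.853 in the 44 h culture. Egr1 stood at 53.1, 56.5 and 64.7 in the sort, against 4.47, 3.35 and 5.22. All 3 sorted libraries were far above all culture libraries for both genes. The log2 differences were 4.04 ± 0.59 for Fos and 3.48 ± 0.58 for Egr1 (adjusted p = 6.6e-06 and 4.8e-05, limma). These were 2 of 8 members, where 12% of all genes were called, and no library of either group was divergent.

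Jun stood at 104, 98.5 and 94.6 in the sort, against 33.6, 22.5 and 34.3 in the 44 h culture, and Junb at 539, 528 and 476, against 272, 377 and 247. Neither overlapped, and neither was called with all libraries (log2 1.71 ± 0.72 and 0.80 ± 0.88, adjusted p = 0.13 and 0.71). Nr4a1 ran the other way, at 12.7, 16.7 and 15.1 in the sort, against 27.7, 31.1 and 29.3 in the culture (log2 -0.95 ± 0.78, adjusted p = 0.57), also without overlap. With the divergent libraries of other groups left out all 3 were called (24.5% of all genes; adjusted p = 0.00090 for Jun, 0.0056 for Junb and 0.0052 for Nr4a1). Egr2 stood at 4.61, 9.82 and 2.21 in the sort and at 0.857, 0.700 and 2.69 in the culture, with overlap (log2 1.35 ± 0.65, adjusted p = 0.21). Nr4a3 (log2 -0.28) and Egr3 (0.11) averaged below 1 scaled TPM in both groups and overlapped.

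Against the 68 h culture no member was called by limma with all libraries, and 1 had an unadjusted p below 0.05 (2.84% of all genes called). Fos stood at 24.4, 29.7 and 33.6 in the sort, against 10.8, 8.67 and 19.1 at 68 h, and every sorted library was higher. Without the divergent 68 h library (3.68% of all genes called), Fos was called higher (log2 1.49, adjusted p = 0.017) and Nr4a1 lower (-1.53, adjusted p = 0.00064). Egr1 then differed by 0.44 (adjusted p = 0.65) and Jun by 1.19 (adjusted p = 0.13). Jun was called without replicate 1 at 68 h (log2 2.77, adjusted p = 0.043). Junb stood at 539, 528 and 476 in the sort, against 603, 582 and 49.6 at 68 h, and its log2 difference was 0.98 ± 0.88 with all libraries (adjusted p = 0.68) and -0.20 without the divergent one (adjusted p = 0.87). Egr2 (log2 0.35), Egr3 (-0.38) and Nr4a3 (-0.63) were not called.

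Other measures moved with the sort. B cell markers, which include the IgM heavy chain gene Ighm, summed to 48716 to 51551 scaled TPM in the sort, against 8913 to 9147 in the 44 h culture and 8612 to 21016 in the 68 h culture. Stromal markers summed to 111 to 168 in the sort, against 26.1 to 54.5 at 44 h and 37.1 to 134 at 68 h, and myeloid markers to 9.71 to 13.6, against 1.59 to 3.10 and 5.97 to 9.17. Over the 44 h culture, 1 of 11 stromal, 1 of 6 myeloid and 4 of 10 B cell markers were called higher in the sort. Heat shock and handling genes summed to 2291 to 2584 in the sort, against 5593 to 6583 at 44 h and 3003 to 12845 at 68 h. The part of other cells, of sorting and of culture time in the differences was not tested.

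**Figure D4:**
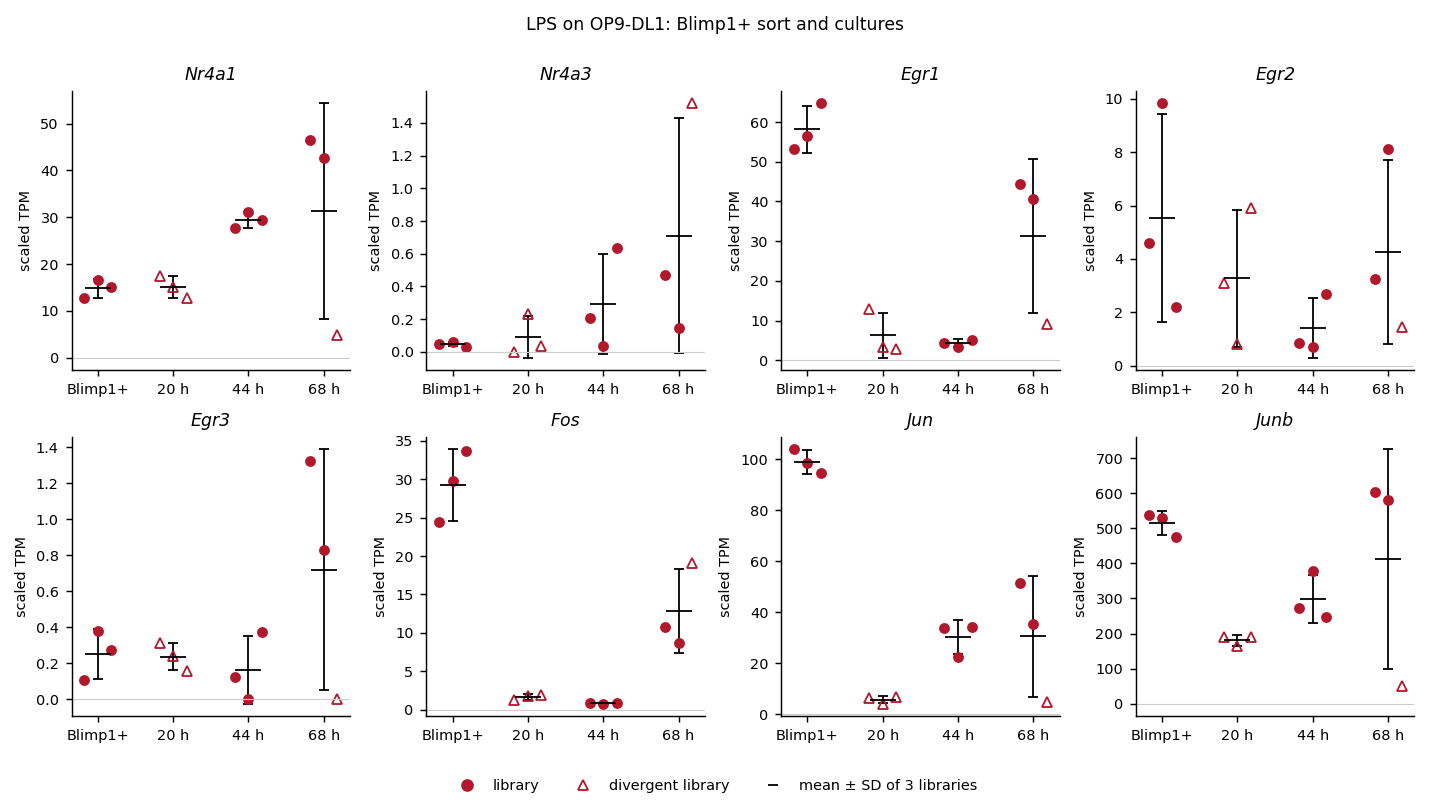
Scaled TPM of each tested member in every library of the Blimp1+ sort and of the unsorted LPS cultures on OP9-DL1 at 20, 44 and 68 h, with mean ± SD and divergent libraries as open triangles. Fos (24.4 to 33.6), Egr1 (53.1 to 64.7) and Jun (94.6 to 104) are highest in the sort, while Nr4a1 lies at 12.7 to 16.7 there and at 27.7 to 31.1 at 44 h.

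Further genes of the same pathways were counted from lists, as a description. Of 15 tested immediate early factors outside the 9 genes, 1 was higher and 1 lower with anti-IgM than with LPS on OP9-DL1 at 44 h, and 3 were higher and 1 lower on OP9. Of all genes, 2.91% were called on OP9-DL1 and 8.63% on OP9. Atf3, a stress-induced AP-1 relative, averaged 0.563 ± 0.350 with anti-IgM and 51.5 ± 7.98 with LPS on OP9-DL1 (log2 -5.08, adjusted p = 6.5e-14, limma). Klf6, a zinc finger factor, averaged 30.7 ± 3.22 and 9.30 ± 0.784 (log2 1.62, adjusted p = 5.5e-06). The list's median was -0.09 on OP9-DL1 and 0.61 on OP9, against 0.00 and 0.04 over all genes.

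Among 16 upstream and partner factors, 2 were higher and 1 lower with anti-IgM at 44 h on OP9-DL1, and 5 and 1 on OP9, beside the same 2.91% and 8.63% of all genes. Nfatc1, a calcium-regulated factor, averaged 188 ± 39.2 with anti-IgM and 29.0 ± 2.00 with LPS on OP9-DL1 (log2 2.63, adjusted p = 0.012). Nab2, a corepressor that binds EGR proteins, averaged 16.3 ± 0.540 and 1.96 ± 0.249 (log2 2.55, adjusted p = 0.0021). Batf, an AP-1 family partner of Jun proteins, averaged 122 ± 7.92 and 534 ± 31.0 (log2 -2.12, adjusted p = 2.5e-06). The medians of this list were 0.58 on OP9-DL1 and 0.81 on OP9.

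Among 16 feedback inhibitors, 1 was higher and 1 lower with anti-IgM at 44 h on OP9-DL1, and 3 and 1 on OP9, again beside 2.91% and 8.63% of all genes. Rgs2, which limits G protein signals, averaged 9.68 ± 1.14 with anti-IgM and 1.35 ± 1.05 with LPS on OP9-DL1 (log2 2.27, adjusted p = 0.010). Nfkbia, the NF-kB inhibitor, averaged 148 ± 10.5 and 455 ± 56.9 (log2 -1.61, adjusted p = 0.0096). The medians were 0.21 on OP9-DL1 and 0.81 on OP9. Of 11 heat shock and handling genes, none was called on OP9-DL1 by limma and 3 were lower with anti-IgM on OP9.

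The same lists were counted in unstimulated cells on OP9-DL1 over OP9 at 68 h. There 2 of 15 other early factors were higher and 5 lower, 1 of 16 feedback inhibitors higher and 2 lower, 6 of 16 upstream factors higher and none lower, and 1 of 11 heat shock genes higher and 3 lower. In that comparison 26.5% of all genes were called in either direction, and no list was tested against that share. Nfatc1 averaged 108 ± 19.0 on OP9-DL1 and 20.6 ± 14.4 on OP9 (log2 2.51, adjusted p = 0.0029, limma), and Jund, an AP-1 subunit, 169 ± 60.5 and 30.8 ± 30.6 (log2 2.78, adjusted p = 0.025). Fosl2, another AP-1 subunit, averaged 0.404 ± 0.275 and 22.9 ± 6.77 (log2 -4.07, adjusted p = 1.1e-08). In the Blimp1+ sort over the 44 h culture, Dusp6, a MAP kinase phosphatase, averaged 16.0 ± 1.52 and 4.12 ± 0.703 (log2 1.74, adjusted p = 0.0037). It was among 3 of 16 feedback inhibitors that were higher in the sort, with none lower, where 12% of all genes were called.

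Among the members themselves, Egr2 and Egr3 varied together over the 15 group means of log2 scaled TPM (Pearson r = 0.847), as did Nr4a1 and Egr3 (r = 0.882). Jun ran against Nr4a3 (r = -0.809) and Egr2 (r = -0.741). Over the 13 groups that keep libraries when the divergent ones are left out, these were 0.915, 0.862, -0.961 and -0.872. Nr4a1 and Nr4a3 had r = 0.429 over 15 groups and 0.829 over 13. The 15 points share stroma, culture and library preparation, so these are descriptions without a test.

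Outside the 9 genes, the group means most like each member were, over the same 15 groups, those of Nfkbid, an atypical NF-kB regulator, for Nr4a1 (r = 0.908), Gfi1, a transcriptional repressor, for Nr4a3 (0.930), and Foxp4 for Egr1 (0.873). For Egr2 they were those of Lck (0.933), Nrgn (0.933) and the aryl hydrocarbon receptor gene Ahr (0.931), and for Egr3 that of Nfatc1 (0.942). Fos was most like Pqlc3 (0.830) and Dusp6 (0.829), Jun most like Lgals9 (0.915), and Junb most like Itpk1 (0.932). These were drawn from 10454 genes with a group mean of at least 5 scaled TPM, as the highest values among them. Over the 13 groups without divergent libraries r was 0.8765 for Nfkbid, 0.9425 for Gfi1 and 0.774 for Foxp4. It was 0.940 for Lck, 0.933 for Nrgn, 0.938 for Ahr and 0.960 for Nfatc1. For Pqlc3 and Dusp6 it was 0.731 and 0.864, for Lgals9 0.905 and for Itpk1 0.745.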

How the data were processed

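Gene expression was measured by RNA sequencing of 45 libraries, 3 in each of 15 groups taken from the labels. The main values are TPM per gene as the authors deposited them. Kallisto, limma and the builds GRCm38 and mm10 are named, without versions, in the submitters' processing notes, and filters and pooling are not given in the sources used here. The deposited series text and the labels name different SMART-seq kits and more than 1 instrument. A second deposited table holds log2 values of estimated counts, which the authors offset by 0.5 and scaled to each library's total. That table gave the reads per library, 3071640 to 29087300 estimated reads, so members at low levels rest on few reads. Estimates by transcript model can split reads between related genes.

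Each library's TPM was scaled by a size factor, the median ratio to the geometric mean of 9462 genes above 0 everywhere. The log2(value + 1) was fitted with limma 3.58.1 in R 4.3.3 as 15 group means over 45 libraries, using its trend and robust options. Fold changes are on that log2 scale, which understates changes of genes near or below 1. Tests covered the 15614 of 30317 genes that reached 1 TPM in 3 or more libraries, and p-values were adjusted by Benjamini and Hochberg over all of them in each comparison. A call is an adjusted p below 0.05. The fit was checked on simulated data with independent noise, the same spread for a gene in all groups and no divergent libraries. That check does not cover spreads that differ between groups.

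The 8 tested members are counted in every comparison, and values are printed for those called with all libraries and for others of note. Members called only in another fit are not all named. The rule was to name all 9 in each, and that was not kept where members were at low levels, not called or called only in another fit. Of other lists, counts are given with up to 3 called genes of largest change. The members and lists were chosen with earlier results of these data known. Alternatives were the scaling, the authors' log2 table, a pseudocount of 0.1, other filters, the replicate number as a block, the compared groups alone, and fits without the divergent libraries or each single library. Replicate numbers were checked by the correlation of deviations from group means between stromas: 8 of 21 same-numbered pairs exceeded 0.1 (range -0.173 to 0.774). All 3 pairs did so with LPS at 68 h (0.513, 0.517 and 0.774), where the block changed no member's call. Replicate 3 of both groups there is divergent and shifts every deviation, so these values cannot show whether replicates were paired. No 2 libraries held identical values.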

Additional observations from a re-analysis of the deposited data

Results flagged for a closer look

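The effect of Delta-like 1 on Nr4a1 differed between LPS and unstimulated cells at 68 h by a tested interaction, with a log2 of -3.24 ± 1.11 (adjusted p = 0.040, limma). The OP9-DL1 and OP9 values were 46.4, 42.7 and 4.83 against 45.4, 48.1 and 3.87 scaled TPM with LPS, and 65.4, 79.3 and 67.1 against 9.02, 12.04 and 1.99 in unstimulated cells. The third library of every group here but unstimulated OP9-DL1 is divergent. Over other settings the adjusted p was 0.072 on TPM as deposited, 0.097 in the authors' log2 table, 0.053 with a pseudocount of 0.1, 0.064 with no filter and 0.23 in a fit of the compared groups alone. The adjusted p was also above 0.05 in 8 fits without 1 library (0.053 to 0.20). These left out any 1 OP9-DL1 unstimulated library, replicate 3 of OP9-DL1 with LPS (-2.26), replicate 1 or 2 of OP9 with LPS (-2.72 and -2.68), or replicate 1 or 3 of OP9 unstimulated (-3.47 and -2.60). Without all divergent libraries the term was -2.71 (adjusted p = 1.2e-05). The stromal marker share of TPM ranged over 0.1003% to 1.43% in unstimulated OP9 cells (n = 3), more than in any library of the other groups, and their part in the term was not tested.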

How the results depend on the processing

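Of 248 member results, 38 were called. Over 3889 alternative values, 3679 kept their side of the threshold, 100 lost a call, 107 gained one and 3 changed sign with a call in either fit. Those 3 were Junb without the divergent libraries: LPS over unstimulated cells on OP9-DL1 (1.11), and 68 h over 44 h with LPS on OP9 (0.87) and on OP9-DL1 (1.01). Of the 3679, 202 changed sign with no call in either fit, 129 without single libraries, 27 without the divergent libraries and 46 under other settings. The cause of the changes below was not tested.

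Counts of calls moved as follows, pooled over comparisons in which 0.0128% to 30.5% of all genes were called with all libraries. For OP9-DL1 over OP9, 8 of 56 member results were called, and 4 in the fit of the compared groups alone. That fit called 0 to 16% of all genes there. For stimulus over unstimulated, 3 of 32 were called, against 6 with quantile normalization and 5 of 28 with the filter at 5 TPM. Quantile normalization called 8.56 to 29.2% of all genes there. For later over earlier times, 6 of 64 were called, against 3 in the authors' log2 table, where 0 to 27.3% of all genes were called. For the Blimp1+ sort over cultures, 2 of 16 were called, against 5 in the fit of the compared groups alone. All 5 were over the 44 h culture. That fit called 33.7% of all genes there, against 12% with all groups in the fit. For differences of ligand effects, 1 of 32 was called, against 2 with quantile normalization, 0 in the authors' log2 table and 0 with no filter. Anti-IgM over LPS had 18 of 48.

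The fit without the divergent libraries has no values for 2 of the 15 groups. It gave 8 calls for OP9-DL1 over OP9 (4 with all libraries in the same comparisons), 15 for stimulus over unstimulated, 20 for anti-IgM over LPS (9 in the same comparisons), 7 for later over earlier times (3), 7 for the Blimp1+ sort and 9 for differences of ligand effects. The share of all genes called also rose in every comparison kept. For stimulus over unstimulated it was 8.1 to 30.5% with all libraries and 16.5 to 39.6% in this fit. Anti-IgM over LPS had 2.91 to 8.63% and 7.61 to 19.7%. OP9-DL1 over OP9 had 0.064 to 26.5% and 0.147 to 41.8%. Later over earlier times had 0.0128 to 7.18% and 0.122 to 13.4%. The sort had 2.84 to 12% and 3.68 to 24.5%, and ligand effects 0.0833 to 16.1% and 0.653 to 36.1%. Leaving out single libraries gave 7 to 11, 2 to 8, 16 to 21, 4 to 8, 2 to 3 and 0 to 3 calls, in the order of these families. The share of all genes called in those single-library fits is not given.

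The replicate block gave 9 calls for OP9-DL1 over OP9, 4 for stimulus over unstimulated, 17 for anti-IgM over LPS, 7 for later over earlier times, 2 for the Blimp1+ sort and 3 for differences of ligand effects. Across the comparisons that fit called 0.0128% to 31.5% of all genes. With the replicate block in the fit of the compared groups alone, chosen after seeing the data, there were 0 calls for OP9-DL1 over OP9. Other scalings moved the median of all genes by up to 0.39 on TPM as deposited, -0.32 with quantile normalization and -0.59 in the authors' log2 table, and 0 of 38 called results changed sign relative to that median. With 3 libraries a group and 0 to 293 estimated reads for Nr4a3 and Egr3, small differences of these genes were not detectable.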

Other observations

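Atf3 and Batf, transcription factors of the basic leucine zipper class, and Nfkbia, which encodes an inhibitor of NF-kappaB, were higher with LPS than in unstimulated cells at 68 h. Atf3 averaged 37.4 ± 2.56 scaled TPM with LPS and 0.962 ± 0.898 unstimulated on OP9-DL1 (log2 4.39, adjusted p = 1.4e-12, limma), and 46.9 ± 8.38 and 0.371 ± 0.476 on OP9 (log2 5.17, adjusted p = 7.3e-15). Batf averaged 299 ± 38.9 with LPS and 39.7 ± 9.23 unstimulated on OP9-DL1 (log2 2.90, adjusted p = 2.6e-09), and 394 ± 15.6 and 17.7 ± 10.00 on OP9 (log2 4.55, adjusted p = 1.2e-14). Nfkbia averaged 579 ± 43.9 with LPS and 69.7 ± 26.3 unstimulated on OP9-DL1, and 511 ± 26.1 and 133 ± 31.1 on OP9 (log2 3.10 and 1.96, adjusted p = 4.9e-07 and 9.8e-05). Each value is the mean and SD of 3 libraries, and replicate 3 is divergent in both LPS groups and in unstimulated cells on OP9. The lists that hold these genes went both ways. On OP9, 2 of 15 other early factors were higher with LPS and 5 lower. For 16 upstream factors the counts were 3 and 1, and for 16 feedback inhibitors 3 and 4, with 30.5% of all genes called. On OP9-DL1 the counts were 3 and 2, 1 and 2, and 2 and 1, with 8.1% of all genes called. Stromal and myeloid markers took a larger share of TPM in each unstimulated OP9 library than in any other library, and their part in these differences was not tested.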
